A study of Homo sapiens with 6 samples.

Results

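Genes of Golgi structure and glycan processing were examined in a human kidney cell line transfected with 1 of 3 preparations. The groups were cells given a construct labelled hIMP1 wt, cells given a construct labelled hIMP1 Dmut (1 of its labels reads hIMP Dmut), and mock cells given the empty vector. All 3 groups were therefore transfected, and none was left untreated. IMP1 is an RNA-binding protein encoded by IGF2BP1. The labels give neither the name of the line, nor the promoter of the constructs, nor the time after transfection, nor what Dmut stands for. RNA was read on 6 separate 1-colour arrays, numbered 1 and 2 within every group. The members were 50 listed genes, and every probe set (the group of probes that reads 1 transcript) with such a gene as its single symbol was taken. Of the 50 genes, 49 had at least 1 such probe set, 131 probe sets in all out of 54613. USO1 was not analysed here, nor was a probe set shared by COG8 and PDF.

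The Golgi apparatus is a stack of flattened cisternae through which proteins made in the endoplasmic reticulum pass on their way to the cell surface, to lysosomes or to secretion. Long coiled-coil proteins called golgins catch incoming vesicles, GRASP proteins help to hold cisternae together, and the conserved oligomeric Golgi (COG) complex tethers vesicles that return enzymes to earlier cisternae. Within the stack, mannosidases trim the sugar chains of glycoproteins, transferases add N-acetylglucosamine, galactose and sialic acid in turn, and other transferases start the chains linked to serine or threonine. Kidney cells use this route for membrane transporters and receptors.

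The promoters of 4 members are shown. They were chosen, after the values were seen, from the 8 genes whose arrays separated both constructs from the empty vector, as those that hold a motif on the higher side and the stacking paralog on the lower side. Golgi stress is known to act on some promoters through an element with the letters ACGTGGC (GASE), which contains the core ACGTG, so the matches of these overlap. An element of the unfolded protein response has the letters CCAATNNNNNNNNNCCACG (ERSE). The motifs were searched on both strands from 250 bases before to 50 bases after the gene start, in RefSeq promoters of build GRCh38.p14. Capitals mark matches of GASE or ACGTG in either orientation, and all sequences read 5′ to 3′ on the strand of the gene. The windows lie at chr2:170929003-170929302 on the plus strand for GORASP2, at chr13:45464689-45464988 on the plus strand for COG3, at chr14:92794055-92794354 on the plus strand for GOLGA5 and at chr3:39107578-39107877 on the minus strand for GORASP1.
GORASP2: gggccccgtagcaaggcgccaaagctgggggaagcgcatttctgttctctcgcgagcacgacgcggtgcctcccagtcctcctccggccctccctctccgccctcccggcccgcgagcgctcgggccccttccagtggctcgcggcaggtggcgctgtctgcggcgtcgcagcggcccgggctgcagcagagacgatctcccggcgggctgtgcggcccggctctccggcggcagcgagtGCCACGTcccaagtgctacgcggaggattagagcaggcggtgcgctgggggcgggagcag
COG3: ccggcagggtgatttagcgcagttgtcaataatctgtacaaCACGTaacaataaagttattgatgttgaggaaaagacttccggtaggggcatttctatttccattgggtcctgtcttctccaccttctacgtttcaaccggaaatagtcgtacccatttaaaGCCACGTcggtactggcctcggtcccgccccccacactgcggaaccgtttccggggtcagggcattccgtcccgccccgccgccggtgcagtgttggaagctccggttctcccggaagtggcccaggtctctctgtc
GOLGA5: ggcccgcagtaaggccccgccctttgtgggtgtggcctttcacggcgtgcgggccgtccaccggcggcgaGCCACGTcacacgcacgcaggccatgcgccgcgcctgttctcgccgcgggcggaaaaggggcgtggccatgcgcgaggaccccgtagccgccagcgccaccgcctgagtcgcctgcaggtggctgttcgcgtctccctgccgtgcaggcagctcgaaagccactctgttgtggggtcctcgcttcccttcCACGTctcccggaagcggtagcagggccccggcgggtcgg
GORASP1: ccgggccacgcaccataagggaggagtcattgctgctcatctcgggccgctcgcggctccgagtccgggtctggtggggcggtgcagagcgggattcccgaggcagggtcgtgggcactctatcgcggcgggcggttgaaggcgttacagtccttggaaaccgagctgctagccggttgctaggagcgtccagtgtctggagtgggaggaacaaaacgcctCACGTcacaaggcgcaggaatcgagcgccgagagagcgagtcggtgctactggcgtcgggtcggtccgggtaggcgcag
GASE began at position -10 relative to the gene start in GORASP2, at -87 in COG3 and at -180 in GOLGA5. GORASP1 held an ACGTG core alone, at -29. Of the other 4 of those 8 genes, FURIN, COG2 and B4GALT3, on the higher side, held neither motif and do not follow that split. GOLIM4, on the lower side, held no GASE, and its ACGTG matches began at -219, -218 and 20. Those at -219 and -218 overlap on opposite strands. Promoters were found for 43 of the members. GASE was present in 5 of them (11.6%), against 3.3% of all 27305 promoters, and the other two were B4GALT2 and GOLGA1. ACGTG was present in 13 (30.2%), against 21.6% of all. ERSE was present in none of the 43 and in 0.0806% of all. These matches describe letters in a window of 300 bases and do not show binding.

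Levels are linear intensities, and an array had a median of 26.7 to 33.7. A change is a difference in log2(intensity + 9.04), and the added offset shrinks the changes of dim probe sets. The filter on low values asked for a mean log2 value at or above the median of all such means, 5.19. Of the 131 probe sets, 100 passed. All 49 genes kept at least 1 probe set, and each gene is represented by its brightest kept one unless stated otherwise. Just inside that limit was the single probe set of ST6GALNAC6 (mean log2 value 5.21), and just outside it the dimmest of the 4 probe sets of GOLGA2 (5.15). The kidney label was set against marker genes at their brightest probe sets. Of the embryonic kidney markers 3 of 5 passed the filter, and of the epithelial ones 4 of 4. PAX8 and SALL1, transcription factors of the embryonic kidney, gave intensities of 148 to 287 and 126 to 192, and the epithelial keratin KRT18 gave 1149 to 1356. Of the fibroblast and mesenchymal markers 2 of 4 passed, the filament gene VIM at 5279 to 6611 and the collagen COL1A1 at 87.2 to 166. COL1A2, at 1.97 to 49.6, and DCN, at 2.79 to 45.5, did not pass. Of the nephron markers 2 of 6 passed, LRP2 at 30.7 to 50.4 and AQP2 at 6.20 to 58.2, and podocyte nephrin, NPHS1, was lowest at 0.875 to 6.23. Of the blood markers 2 of 5 passed, HBB at 34.9 to 86.9 and CD3E at 6.30 to 57.1, while CD14 gave 0.649 to 1.95. Of the endothelial markers 1 of 3 passed, PECAM1 at up to 60.9. In such bulk RNA, fewer cells of a type and less RNA per cell cannot be told apart. Whether replicates were separate cultures is not in the labels, so the p-values reflect the spread between arrays alone, which may be technical.

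Most Golgi genes differed little between the groups, and none passed the test in any comparison. By limma with two-sided tests and Benjamini-Hochberg adjustment over 27307 probe sets, 0 of the 100 member probe sets were called for hIMP1 wt minus mock, for hIMP1 Dmut minus mock, for hIMP1 Dmut minus hIMP1 wt or for the mean of both constructs minus mock (smallest adjusted p = 1 in each). Among all probe sets 0.00732% were called against mock for each construct and for their mean, and 0% between the constructs. At an unadjusted p under 0.05 there were 3, 0, 2 and 2 member probe sets in the same order, against 1.03%, 1.42%, 1.23% and 1.27% of all probe sets. ST6GALNAC6, dim in one group, is among them for hIMP1 wt and for hIMP1 Dmut minus hIMP1 wt. It passed the filter through its hIMP1 Dmut and mock arrays, so no test is read from its place in these counts. Over the 49 genes the median log2 change was 0.04 for hIMP1 wt (27 genes higher, 55.1%, against 46.5% of all genes), 0.08 for hIMP1 Dmut (32 higher, 65.3%, against 48.7%) and 0.01 for hIMP1 Dmut minus hIMP1 wt (29 higher, 59.2%, against 52.4%). The same medians over all 12269 genes were -0.01, -0.01 and 0.01. Without hIMP1 wt replicate 1 the members' median for hIMP1 wt was -0.01, and without mock replicate 2 it was 0.0037.

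Beyond the test, the arrays of some genes were separated without overlap. With hIMP1 wt, 10 of the 49 genes had both arrays above both mock arrays (20.4%, against 8.67% of all genes) and 6 had both below (12.2%, against 11%). ST6GALNAC6, at background with hIMP1 wt, is among these 6, and its place there is not read as a result. With hIMP1 Dmut the counts above and below were 12 (24.5%, against 11.2%) and 3 (6.12%, against 12%). Both comparisons share the mock arrays. All 4 construct arrays lay above both mock arrays for 6 genes (12.2%, against 3.33%), which were GORASP2, GOLGA5, COG2, COG3, FURIN and B4GALT3, and below both for 2 genes (4.08%, against 4.06%), GORASP1 and GOLIM4. COG3 and B4GALT3 were singled out after their values were seen.

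**Figure D1:**
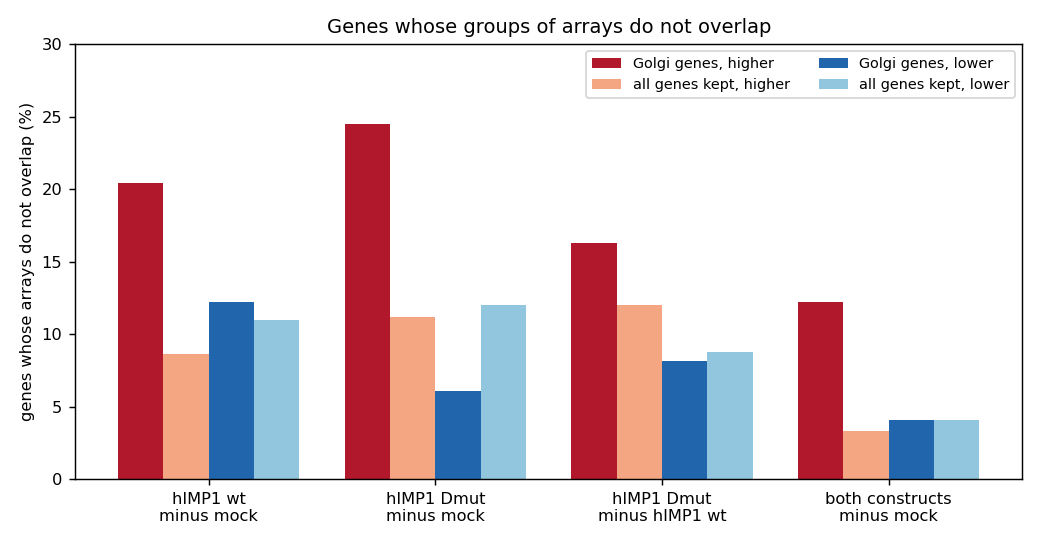
Percentage of genes (y axis) whose groups of arrays do not overlap, for each comparison (x axis), with bars for the 49 Golgi genes and for all 12269 genes, higher and lower. The Golgi share on the higher side is 24.5% for hIMP1 Dmut minus mock, against 11.2% of all genes, and 12.2% for both constructs minus mock, against 3.33%.

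The paralogs GORASP1 and GORASP2, which encode the stacking proteins GRASP65 and GRASP55, stood on opposite sides of mock. GORASP2 had intensities of 924 and 852 on the hIMP1 wt arrays, 987 and 803 on the hIMP1 Dmut arrays, and 719 and 776 on the mock arrays. GORASP1 had 181 and 155 with hIMP1 wt, 172 and 165 with hIMP1 Dmut, and 201 and 212 with mock. In neither gene did any construct array overlap a mock array. The log2 change of GORASP2 was 0.24 ± 0.18 (SE) with hIMP1 wt and 0.25 ± 0.18 with hIMP1 Dmut (limma, adjusted p = 1). That of GORASP1 was -0.29 ± 0.22 and -0.28 ± 0.22 (adjusted p = 1). A dimmer probe set of GORASP2 differed from mock by 0.10 (hIMP1 wt) and 0.16 (hIMP1 Dmut), the other by 0.16 and 0.26, on overlapping arrays except for the 0.16 of hIMP1 wt. GORASP1 had no other kept probe set.

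Of the golgins, GOLGA5 (golgin-84, a tether within the stack) lay on the higher side. Its intensities were 528 and 492 with hIMP1 wt, 592 and 501.5 with hIMP1 Dmut, and 438 and 451 with mock, so all construct arrays lay above mock. The log2 change was 0.19 ± 0.19 with hIMP1 wt and 0.29 ± 0.19 with hIMP1 Dmut (adjusted p = 1), the second at 0.17 without hIMP1 Dmut replicate 1. GOLGB1, the giant golgin giantin, gave 486 and 478 with hIMP1 wt, 595 and 515 with hIMP1 Dmut, and 448 and 519.7 with mock, with overlap on both sides. GOLGA2, the cis-Golgi matrix protein GM130 to which GRASP65 binds, gave 129 and 98.2, 121 and 131, and 109 and 109 in the same order, above mock without overlap for hIMP1 Dmut alone (0.19 ± 0.25). At its dimmer kept probe sets hIMP1 Dmut overlapped mock, with 115.5 and 75.3 against 93.8 and 83.7, and with 43.7 and 38.3 against 39.4 and 39.7. Over the 14 golgins and stacking genes measured, 6 were higher and 8 lower with hIMP1 wt (median -0.02, from -0.48 to 0.24). The share higher was 42.9%, against 46.5% of all genes. With hIMP1 Dmut 11 were higher and 3 lower (median 0.17, from -0.28 to 0.40), a share of 78.6% higher, against 48.7%. Under median scaling 8 of the 14 were higher with hIMP1 wt (median 0.04), where 59.9% of all genes were higher. For hIMP1 Dmut it was 9 of the 14 (median 0.10), where 36.1% of all genes were higher. That scaling thus moved the shares of all genes too. The highest of the 14 with hIMP1 Dmut, BLZF1 (golgin-45, at 0.40), spanned 156 to 369 within the hIMP1 Dmut arrays and 125 to 259 within the mock arrays.

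TRIP11, the golgin GMAP-210 that catches vesicles at the cis side, separated the constructs from each other. At its brightest probe set it had 52.2 and 62.99 with hIMP1 wt, 96.05 and 97.6 with hIMP1 Dmut, and 78.7 and 88.2 with mock. Both hIMP1 wt arrays lay below mock and both hIMP1 Dmut arrays above it. The log2 change was -0.48 ± 0.28 with hIMP1 wt and 0.20 ± 0.28 with hIMP1 Dmut, and the difference of hIMP1 Dmut minus hIMP1 wt was 0.67 ± 0.28 (unadjusted p = 0.0349 by limma, adjusted p = 1). The other 3 kept probe sets did not repeat the low hIMP1 wt values. They gave 0.11, -0.03 and 0.40 for hIMP1 wt minus mock, and 0.34, 0.37 and -0.62 for hIMP1 Dmut minus hIMP1 wt. Their places along the transcript were not analysed here.

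Of the 8 COG genes, 5 were higher and 3 lower with hIMP1 wt (median 0.13). With hIMP1 Dmut 6 were higher and 2 lower (0.18). The shares higher were 62.5% and 75%, against 46.5% and 48.7% of all genes. Without mock replicate 2, 4 of the 8 were higher with each construct (medians 0.00043 and 0.09), and 3 for the mean of both constructs (-0.05). COG2 and COG3 are subunits of lobe A of the complex. COG2 had intensities of 679 and 801 with hIMP1 wt, 747 and 789 with hIMP1 Dmut, and 627 and 586 with mock. COG3 had 157 and 124 with hIMP1 wt, 148 and 122 with hIMP1 Dmut, and 111 and 109 with mock. Both genes were above mock on all 4 construct arrays. The log2 change of COG2 was 0.28 ± 0.18 with hIMP1 wt and 0.34 ± 0.18 with hIMP1 Dmut, and that of COG3 was 0.33 ± 0.25 and 0.27 ± 0.25 (limma, adjusted p = 1). A second kept probe set of COG3 gave 0.50 and 0.51, with overlapping arrays.

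COG4, another subunit of lobe A, had 206 and 177 with hIMP1 wt, 166 and 194 with hIMP1 Dmut, and 192 and 216 with mock. Its mean was lower with both constructs, on overlapping arrays, at a change of -0.13 ± 0.19 for the mean of both. COG8, a subunit of lobe B, had the largest COG change with hIMP1 Dmut (0.42 ± 0.27, and 0.18 without mock replicate 2). Its intensities were 204 and 134 with hIMP1 wt, 218 and 244 with hIMP1 Dmut, and 203 and 142 with mock. It was high on both hIMP1 Dmut arrays and ranged widely in the other groups. The difference of hIMP1 Dmut minus hIMP1 wt was 0.46 ± 0.27, at 0.10 for replicate 1 and 0.82 for replicate 2. Its second probe set had 113 and 119 with hIMP1 Dmut against 123 and 143 with hIMP1 wt, a difference of -0.18 ± 0.24 in the opposite direction. The mock arrays gave 132 and 142 at that probe set. Both hIMP1 Dmut arrays thus lay below mock there, against the direction at the brightest probe set. COG1 was lower with hIMP1 Dmut, at 177 and 186, than with hIMP1 wt, at 236 and 192 (-0.22 ± 0.23, adjusted p = 1). Its mock arrays gave 212 and 176, on both sides of the hIMP1 Dmut values.

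FURIN, the protease that cleaves proproteins in the trans-Golgi network, had the highest change against mock among the brightest kept probe sets. Its only probe set gave 118 and 105 with hIMP1 wt, 134 and 83.4 with hIMP1 Dmut, and 78.9 and 45.99 with mock. The lowest construct array stood just above the highest mock array, and replicate 2 was below replicate 1 in every group. The log2 change was 0.79 ± 0.33 with hIMP1 wt, or 1.73-fold (95% interval from 0.05 to 1.53 on the log2 scale), and 0.73 ± 0.33 with hIMP1 Dmut (-0.01 to 1.47). For the mean of both constructs it was 0.76 ± 0.29, with an unadjusted p of 0.0249 and an adjusted p of 1 (limma). Without mock replicate 2 the change was 0.45 with hIMP1 wt and 0.39 with hIMP1 Dmut, and without hIMP1 Dmut replicate 1 the change with hIMP1 Dmut was 0.41. Between constructs FURIN differed by -0.06 ± 0.33, with a 95% interval of -0.80 to 0.68.

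GOLIM4, which cycles between the Golgi and endosomes, had 668 and 743 with hIMP1 wt, 667 and 714 with hIMP1 Dmut, and 761 and 763 with mock, below mock on all 4 construct arrays. The log2 change was -0.11 ± 0.17 and -0.14 ± 0.17. A dimmer probe set of GOLIM4 gave -0.21 and 0.08 on overlapping arrays. TGOLN2, the trans-Golgi marker TGN46, and GOLPH3, which binds Golgi phosphoinositide, overlapped mock with both constructs, at changes of -0.10 and 0.10 with hIMP1 wt and 0.05 and 0.18 with hIMP1 Dmut. At a dimmer probe set of TGOLN2 both hIMP1 Dmut arrays lay above mock, with 308 and 299 against 284 and 215. The same held at another, with 248 and 193 against 181 and 166. At its last kept probe set they overlapped mock, with 214 and 159 against 228 and 121. The hIMP1 wt arrays overlapped mock at each of these. GOLM1 (GP73) differed by -0.03 in both comparisons.

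**Figure D2:**
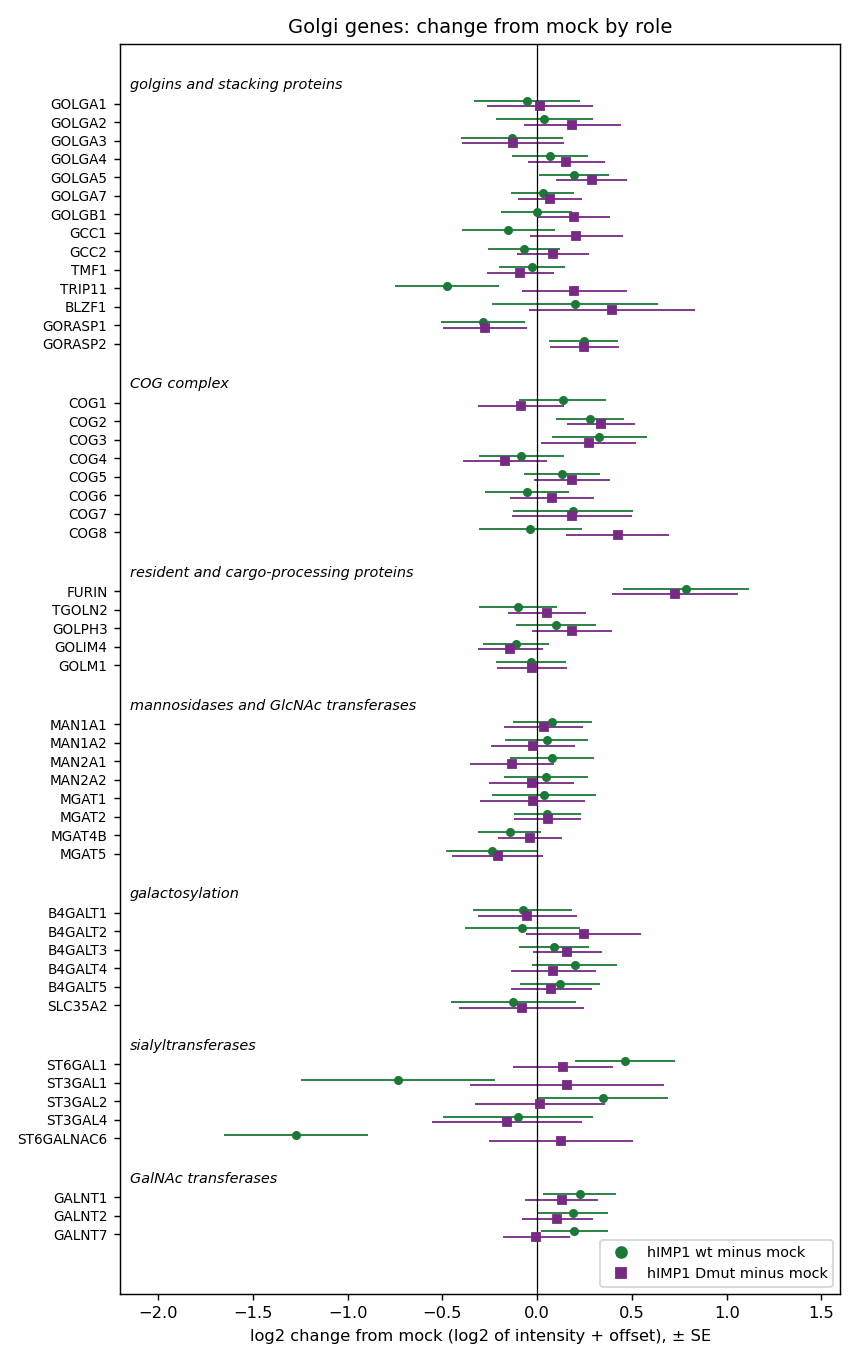
Log2 change from mock (x axis, points with bars of ± 1 SE from limma) of the 49 Golgi genes at their brightest kept probe sets (rows, by role), for hIMP1 wt (circles) and hIMP1 Dmut (squares), 2 arrays a group. The points of FURIN lie at 0.79 and 0.73, and the hIMP1 wt point of ST6GALNAC6 at -1.27 lies apart from its hIMP1 Dmut point at 0.12.

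Mannosidases and N-acetylglucosaminyl transferases, which trim and branch N-linked chains, lay close to mock with both constructs. Their 8 changes ran from -0.24 to 0.08 with hIMP1 wt (6 higher, 2 lower) and from -0.21 to 0.06 with hIMP1 Dmut (2 higher, 6 lower). MGAT2, which starts the second antenna, gave 1241 and 1266 with hIMP1 wt, 1410.4 and 1117 with hIMP1 Dmut, and 1229.6 and 1185 with mock. MGAT5, which makes the branch carried by tetra-antennary chains, was lowest, with 364 and 459 with hIMP1 wt, 373 and 468 with hIMP1 Dmut, and 398 and 589 with mock. Those groups overlapped, and the log2 change was -0.24 ± 0.24 and -0.21 ± 0.24 (adjusted p = 1). The hIMP1 Dmut change of MGAT5 was 0.07 without mock replicate 2. MGAT4B was 751 and 776 with hIMP1 wt, 813 and 833 with hIMP1 Dmut and 823 and 869 with mock, below mock without overlap for hIMP1 wt alone (-0.15 ± 0.17). A dimmer probe set of MGAT4B did not repeat this, with 286 and 311 with hIMP1 wt against 268 and 305 with mock.

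In the galactosylation group, B4GALT3, a galactosyltransferase, was above mock on all construct arrays, with 430.4 and 431 with hIMP1 wt, 475 and 433 with hIMP1 Dmut, and 417 and 393 with mock. The separation was small, at 0.09 ± 0.18 and 0.16 ± 0.18 (adjusted p = 1). The other 4 galactosyltransferases overlapped mock with both constructs, with changes between -0.08 and 0.24. SLC35A2, which carries UDP-galactose into the Golgi, had 344 and 224 with hIMP1 wt, 361 and 227 with hIMP1 Dmut, and 405 and 227 with mock. It differed between the arrays numbered 1 and 2 in every group and by only -0.13 ± 0.33 and -0.08 ± 0.33 between constructs and mock. At its 2 dimmer kept probe sets hIMP1 wt differed from mock by 0.34 and 0.26, and hIMP1 Dmut by 0.59 and 0.41.

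Changes of the sialyltransferases, which cap the chains, ran from -1.27 to 0.47 with hIMP1 wt and from -0.16 to 0.16 with hIMP1 Dmut. The -1.27 is that of ST6GALNAC6, so the width of the range with hIMP1 wt is not read as a result. ST6GALNAC6, which adds sialic acid to N-acetylgalactosamine and to gangliosides, had 13.05 and 8.93 with hIMP1 wt, 41.9 and 45.03 with hIMP1 Dmut, and 36.95 and 41.4 with mock. Both hIMP1 wt values were below the array medians and below all other arrays, while both hIMP1 Dmut values were slightly above mock. The gene passed the filter through its hIMP1 Dmut and mock arrays, and its hIMP1 wt values lie near the offset of 9.04, at background. The log2 difference from mock is therefore a description: -1.27 with hIMP1 wt, and 1.40 for hIMP1 Dmut minus hIMP1 wt, with no test read from it. With the offset at the median intensity these were -0.75 and 0.83, and with the offset at the 10th percentile -1.64 and 1.78. The gene has 1 probe set with a single symbol, so no other reading of it was set beside these values.

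ST6GAL1, which adds alpha-2,6 sialic acid to N-linked chains, was on the other side. It had 123 and 156 with hIMP1 wt, 98.9 and 119 with hIMP1 Dmut, and 88.7 and 108 with mock. Both hIMP1 wt arrays were above mock (0.47 ± 0.26) and above hIMP1 Dmut (hIMP1 Dmut minus hIMP1 wt, -0.33 ± 0.26), and none of this passed (adjusted p = 1). ST3GAL1, which sialylates core O-linked chains, had 8.58 and 42.4 with hIMP1 wt, 44.04 and 49.5 with hIMP1 Dmut, and 31.1 and 53.4 with mock, so its change of -0.73 ± 0.51 with hIMP1 wt rested on replicate 1. Without that array it was 0.04, and a second kept probe set gave 0.09. At its brightest probe set ST3GAL2 had 113 and 63.6 with hIMP1 wt, 58.9 and 73.2 with hIMP1 Dmut, and 77.0 and 54.5 with mock. The groups overlapped there, at 0.35 ± 0.34 for hIMP1 wt minus mock and -0.33 for hIMP1 Dmut minus hIMP1 wt. A dimmer probe set gave 78.9 and 70.8 with hIMP1 wt, 61.9 and 69.8 with hIMP1 Dmut, and 55.04 and 27.9 with mock. All its construct arrays lay above mock (0.78 ± 0.35 and 0.62 ± 0.35, adjusted p = 1).

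**Figure D3:**
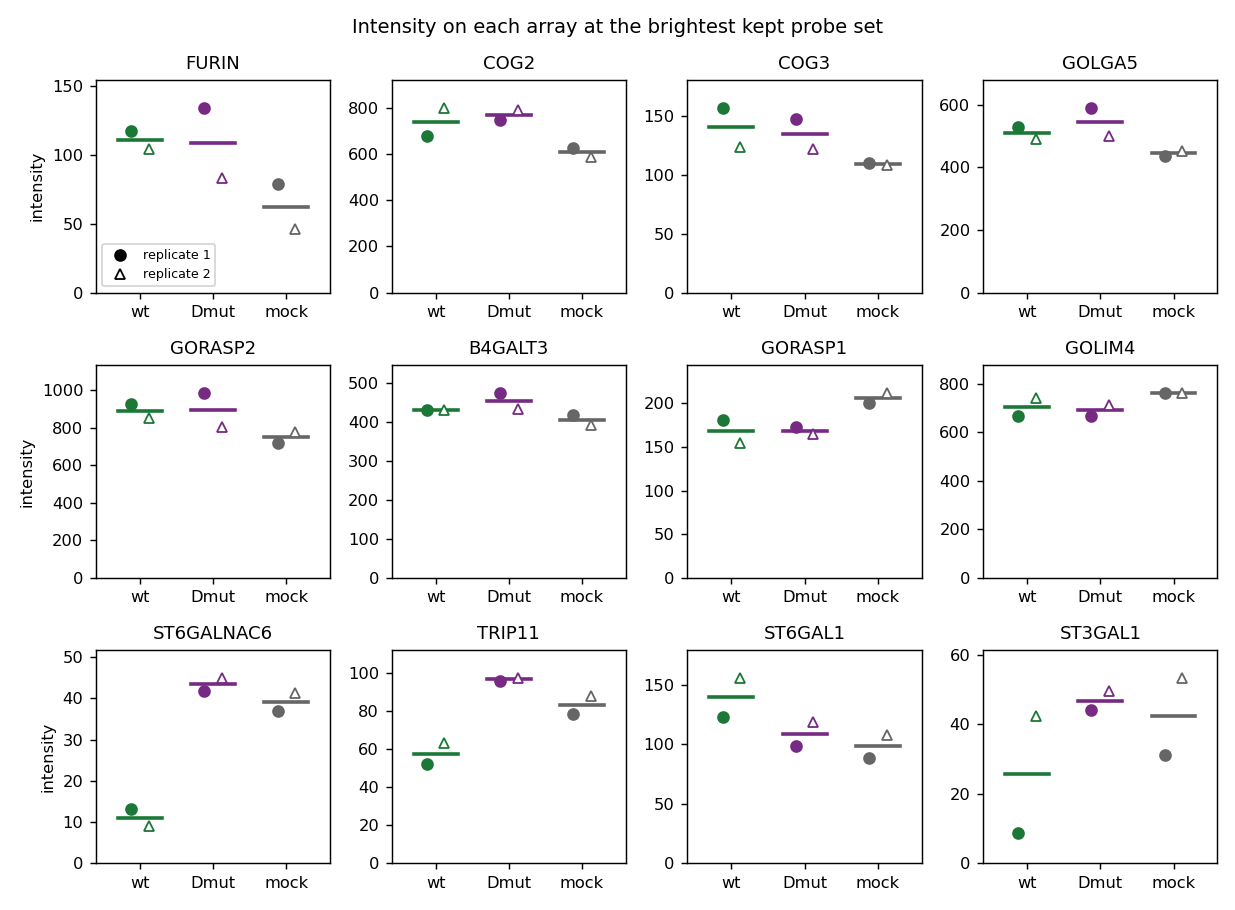
Intensity (y axis, linear, from 0) on each of the 6 arrays for 12 Golgi genes at their brightest kept probe sets, by group (x axis). Filled circles are replicate 1, open triangles replicate 2, and lines the mean of 2 arrays. ST6GALNAC6 stands at 13.05 and 8.93 with hIMP1 wt, against 36.95 and 41.4 with mock, and GORASP1 lies below mock where GORASP2 lies above it.

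The 3 GalNAc transferases, which start O-linked chains, were higher with hIMP1 wt by 0.19 to 0.22, while with hIMP1 Dmut GALNT1 differed from mock by 0.13 and GALNT2 by 0.11. GALNT7 had 789 and 939.5 with hIMP1 wt, 747 and 749.8 with hIMP1 Dmut, and 734 and 768 with mock. Both hIMP1 wt arrays stood above the other 4, and the difference of hIMP1 Dmut minus hIMP1 wt was -0.20 ± 0.18 (adjusted p = 1). A dimmer probe set of GALNT7 gave 0.28 ± 0.21 for that difference, in the opposite direction and also without overlap. GALNT2 differed from mock by 0.19 ± 0.19 with hIMP1 wt at its brightest probe set, and a dimmer one gave 0.53 ± 0.27 with all construct arrays above mock. Its last kept probe set overlapped mock with both constructs. It gave 285 and 225 with hIMP1 wt, 259 and 207 with hIMP1 Dmut, and 255 and 227 with mock. GALNT1 gave 0.22 ± 0.19 at its brightest probe set but -0.16, -0.02 and -0.08 at the other 3 kept.

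Between the constructs, 13 of 14 golgins and stacking genes had a positive difference of hIMP1 Dmut minus hIMP1 wt (92.9%, against 52.4% of all genes), with a median of 0.09. The direction turned under median scaling, with 6 of 14 positive (median -0.04, with 28.5% of all genes positive). Under quantile scaling 12 were positive (median 0.09), and under cyclic loess scaling 11 (0.10). Without hIMP1 wt replicate 2 there were 7 (median -0.01), and without hIMP1 Dmut replicate 1 also 7 (0.01). Of the 14, 3 were above hIMP1 wt without overlap (21.4%, against 12% of all genes) and 1 was below (7.14%, against 8.75%). The other role groups had medians between -0.09 and 0.03. Across the 49 genes, 8 were above hIMP1 wt without overlap (16.3%, against 12% of all genes) and 4 below (8.16%, against 8.75% of all genes). ST6GALNAC6, whose hIMP1 wt values are at background, is among the 8, and its place there is not read as a result. The 95% intervals excluded a change of 2-fold in either direction for 42 of 49 genes with hIMP1 wt, 44 with hIMP1 Dmut and 43 between the constructs, against 80%, 79% and 79.5% of all genes. With hIMP1 wt the intervals that reached 2-fold were those of BLZF1, ST6GAL1, FURIN, TRIP11, ST3GAL2, ST3GAL1 and ST6GALNAC6. The hIMP1 wt values of ST6GALNAC6 are at background, so its interval is not read as a test.

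The median size of the difference between replicate 2 and replicate 1 was 0.21 over the 49 genes and 0.26 over all genes. For 20 of the 49 genes replicate 2 differed from replicate 1 in the same direction in all 3 groups, against 5453 of all 12269 genes. The mannosidases and N-acetylglucosaminyl transferases accounted for 6 of these, all higher on replicate 2, and the median of their mean difference was 0.29. Of the resident and cargo-processing genes, 3 of 5 were lower on replicate 2 in all groups, FURIN among them (-0.16 with hIMP1 wt, -0.63 with hIMP1 Dmut and -0.68 with mock). What the replicate number stands for is not given in the labels.

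**Figure D4:**
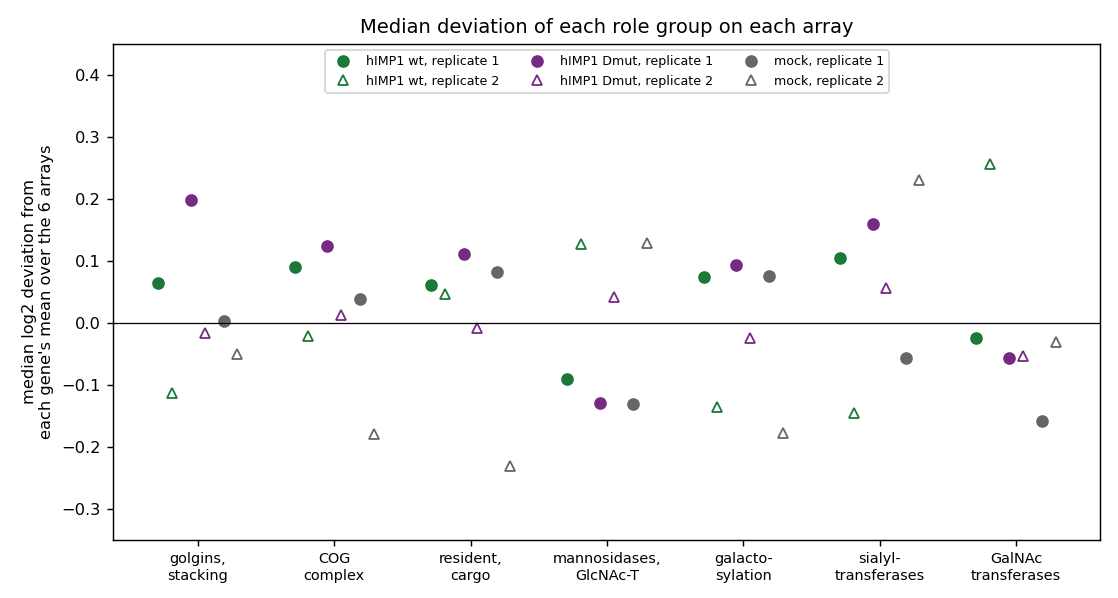
Median over each role group (x axis) of the log2 deviation from each gene's mean over the 6 arrays (y axis), with 1 point for each array. Filled circles are replicate 1 and open triangles replicate 2. The mannosidase group lies between -0.13 and -0.09 on the 3 arrays numbered 1 and between 0.04 and 0.13 on those numbered 2.

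Probe sets of the same gene often disagreed in sign. Of the 30 members with at least 2 kept probe sets, all kept probe sets of a gene had the same sign in 13 for hIMP1 wt minus mock, in 15 for hIMP1 Dmut minus mock and in 14 for hIMP1 Dmut minus hIMP1 wt. FURIN, GOLGA5, COG2, GORASP1 and ST6GALNAC6 had 1 kept probe set each, and B4GALT3 likewise. Further Golgi genes were listed beside the members. Of 51 measured, 25 were higher and 26 lower with hIMP1 wt (median -0.0011), and 34 higher and 17 lower with hIMP1 Dmut (0.08). By limma 0 were called in any comparison. At an unadjusted p under 0.05 there were 0 for hIMP1 wt and 1 for hIMP1 Dmut, against 1.03% and 1.42% of all probe sets. Of the 51 genes, 5 lay above mock on all construct arrays (9.8%, against 3.33% of all genes) and 1 below (1.96%, against 4.06%).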

How the data were processed

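Total RNA of 6 samples was measured on 1-colour arrays whose probe set names are those of Affymetrix. The authors deposited 1 intensity on a linear scale per probe set (54675, of which 62 controls were left out). The software is not given in the sources used here. The deposited intensities have the same trimmed mean on all arrays (150.02 with 2% taken off each end), which is how a common scaling to a target would look. From these, log2(intensity + 9.04), with the pooled lower quartile as offset, was computed and fitted with limma 3.58.1 in R 4.3.3 (lmFit, eBayes with trend, all 6 arrays, 3 residual degrees of freedom and a prior of 7.03). Tests were two-sided with a threshold of 0.05, and the fit was tested on simulated data. Each gene was read at its kept single-symbol probe set of highest mean. Promoters came from RefSeq.

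Genes were described with values on every array, whatever the role group, when among the 4 highest or 4 lowest moderated statistics of the members in a comparison, when past the threshold, or when named in an earlier report on these arrays. Values of other members illustrate their group. Members, lists and motifs were chosen with earlier results of these data known. Members and further Golgi genes have no p-value of their own as lists.

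Alternatives were quantile and median scaling, 2 other offsets, no filter or a stricter one, the replicate number as a block, other variance priors, only the 4 arrays compared, the mean over probe sets, and each array left out. Cyclic loess scaling was chosen after seeing the data. The number of arrays limits the precision.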

Additional observations from a re-analysis of the deposited data

Results flagged for a closer look

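For 2 of the 49 Golgi genes (4.08%, against 1.08% of all 12269 genes) the constructs lay on opposite sides of mock, with no array overlapping it. ST6GALNAC6 had both hIMP1 wt arrays below and both hIMP1 Dmut arrays above mock, and differed between hIMP1 Dmut and hIMP1 wt by 1.40 on the log2 scale. It passed the filter through its hIMP1 Dmut and mock arrays, and its hIMP1 wt intensities of 13.05 and 8.93 are at background, so the size is a description that moves with the offset. TRIP11 showed the same order at its brightest probe set, with a difference of 0.67 ± 0.28 (SE), which did not pass by limma (adjusted p = 1). Its other 3 kept probe sets did not repeat that order without overlap. Both contrasts with mock use the same 2 mock arrays. Single outlying arrays were not tested, since a group holds 2.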

How the results depend on the processing

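No member probe set was called (0 in each comparison) under any alternative run. With the replicate block the count over all probe sets for the mean of both constructs minus mock was 4, against 2, and 0 members were called (smallest adjusted p = 1). It left every member change as it was, since each group holds both numbers. Deviations of same-numbered arrays from their group means correlated at 0.2 to 0.464, and over all kept probe sets each array correlated best with one of its own number, a hint from the data. Over the member genes this did not hold: hIMP1 Dmut replicate 2 and mock replicate 1 correlated best with each other (0.98). The labels give only the number, so the fit without it was kept. The counts over all probe sets, 2 in each comparison with mock, were 1 for hIMP1 wt with the offset at the 10th percentile, 1 in each with the stricter filter, 0, 0 and 1 without an intensity trend, and 0 for hIMP1 wt with only the 4 arrays compared. With 1 array left out they ran from 0 to 3 for hIMP1 wt, 0 to 2 for hIMP1 Dmut and 0 to 4 for both.

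Under median scaling the members' median log2 change was 0.0912 for hIMP1 wt, 0.00733 for hIMP1 Dmut, -0.113 for hIMP1 Dmut minus hIMP1 wt (12 of 49 genes higher) and 0.0406 for both constructs. The same scaling put the median of all genes at 0.0417 for hIMP1 wt, -0.0752 for hIMP1 Dmut, -0.115 between the constructs and -0.0190 for both. For both constructs the members' median was 0.0572 with quantile scaling, 0.0542 with cyclic loess scaling and 0.0509 with the stricter filter (36 genes). With the mean of all probe sets it was 0.124 for hIMP1 Dmut, 0.0518 between the constructs and 0.0617 for both. Leaving out 1 array gave -0.0101 to 0.04999 for hIMP1 wt, 0.0401 to 0.0922 for hIMP1 Dmut, -0.0183 (without hIMP1 Dmut replicate 1) to 0.0895 between the constructs and 0.0141 to 0.0635 for both. It turned the sign of ST3GAL1 for hIMP1 wt (-1.51 to 0.0402, positive without hIMP1 wt replicate 1), of ST3GAL2 between the constructs (-0.703 to 0.0408, likewise), and of MGAT5 for hIMP1 Dmut (-0.486 to 0.0670) and for both (-0.501 to 0.0516), positive without mock replicate 2. The other 519 recomputed changes of these members kept their direction and side of the threshold. The causes were not tested. Intensities near the array medians, as for ST6GALNAC6, depend on the offset.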
